A study of Homo sapiens with 4 samples.

Results

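The epidermal kallikreins covered here are the secreted serine proteases KLK5 to KLK11, and SPINK5 encodes LEKTI, the protein that inhibits several of them. The 8 genes (KLK5, KLK6, KLK7, KLK8, KLK9, KLK10, KLK11 and SPINK5) were taken by their symbols from a table of counts for 60617 genes, and all 8 were listed there. The table came from SCC13 cells, a cultured skin squamous cell carcinoma line of human origin, described in the labels as wild type and infected with a lentivirus. The control cells received a scrambled shRNA and the CELF2 knockdown cells an shRNA aimed at CELF2, an RNA-binding protein. Each group had 2 polyA RNA libraries, both groups had been infected, and all libraries come from the same line. The labels do not say that replicates were separate cultures. Any p-value here rests on the spread between 2 libraries a group, which may be technical. The tests also draw on the spread of the other genes to estimate that of each gene.

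Kallikreins are made as inactive proenzymes in the upper, differentiating layers of the epidermis and are secreted with lamellar granules. Outside the cell KLK5 activates itself and KLK7, and these enzymes cut the corneodesmosomes that hold the outermost cells together, which lets the skin shed. LEKTI binds KLK5 and KLK7 and keeps them in check, and loss of SPINK5 causes Netherton syndrome, a disease of overactive epidermal proteolysis. Matriptase and prostasin act upstream, and kallikreins can also cleave the receptor PAR2 on keratinocytes.

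The 7 kallikrein genes lie next to each other on the minus strand of chromosome 19 (GRCh38, GENCODE v29), from 50943303 at the end of KLK5 to 51028039 at the start of KLK11. SPINK5 lies apart from these kallikrein genes, on chromosome 5, 148025683 to 148137289, on the plus strand. KLK5, KLK6 and KLK7 are direct neighbours and, as given below, had the same order of levels over the 4 libraries, so the stretches before their starts are shown. KLK8, the next gene in the cluster, had the same order, but no RefSeq window was available for it. Each sequence holds 160 bases, from 250 to 91 bases before the most upstream RefSeq start (GRCh38.p14), read 5′ to 3′ on the minus strand, and covers no annotated exon. The windows are chr19:50953129-50953288 for KLK5, chr19:50969682-50969841 for KLK6 and chr19:50984155-50984314 for KLK7. Capitals mark the searched letters CCGGAA (a core read by ETS factors) and GGGCGG (a GC box, read by Sp and KLF factors) on either strand.
KLK5: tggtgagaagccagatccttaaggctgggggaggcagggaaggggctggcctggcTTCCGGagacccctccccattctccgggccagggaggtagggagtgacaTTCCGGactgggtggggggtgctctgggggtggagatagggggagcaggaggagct
KLK6: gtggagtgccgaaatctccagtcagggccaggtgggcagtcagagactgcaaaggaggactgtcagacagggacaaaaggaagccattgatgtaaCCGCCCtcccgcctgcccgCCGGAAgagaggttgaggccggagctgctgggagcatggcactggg
KLK7: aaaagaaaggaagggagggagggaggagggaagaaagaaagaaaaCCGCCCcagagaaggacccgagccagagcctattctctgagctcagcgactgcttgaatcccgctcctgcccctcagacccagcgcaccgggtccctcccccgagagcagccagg

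CCGGAA occurred at 2 places in the KLK5 window and at 1 in the KLK6 window, and was present in 7.26% of 35116 such windows over all genes. GGGCGG occurred once in the KLK6 window and once in the KLK7 window, against 27.7% of all windows. TGANTCA (AP-1) and AACNGGTT (grainyhead factors), present in 4.09% and 1.02% of all windows, were in none of the 3. The found sites do not overlap each other. The 4 motifs were chosen after the sequences had been seen, and the windows of KLK9, KLK10, KLK11 and SPINK5 held none of them. The KLK10, KLK11 and SPINK5 windows lie inside these genes as annotated in GENCODE v29, and those of KLK10 and SPINK5 touch annotated exons. The 3 windows were rich in G and C (66.2% for KLK5, 61.9% for KLK6 and 61.2% for KLK7, with a median of 56.2% over all windows). The windows of KLK9 (63.8%), KLK11 (59.4%) and KLK10 (58.1%) were also above that median, and the SPINK5 window had 40.6%.

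Depth was 27898889 counts for control 1, 17649090 for control 2, 19928788 for knockdown 1 and 23177056 for knockdown 2. Values are given in CPM, counts scaled to a common library depth with TMM factors (0.955 to 1.03), and a floor of 3 counts is 0.107 and 0.178 CPM in controls and 0.148 and 0.126 CPM under knockdown. CELF2 itself had 1 count in control 1 and 0 in the other 3 libraries, so the target gene gives no check of the group labels. All 12 keratinocyte markers were counted (summed level 12778 and 20419 CPM in controls, 27658 and 19662 CPM under knockdown). KRT6B was the lowest of them, with 23 and 2 counts in controls and 20 and 11 under knockdown, under the floor in control 2. Defining markers of other cells were at or near 0: DCN, LUM, COL1A2, COL3A1, MLANA, TYR, TYRP1, PTPRC and CD3E had 0 counts in all 4 libraries. The 6 fibroblast markers summed to 13.3 and 16.3 CPM in controls and 38.05 and 21.1 CPM under knockdown, nearly all of it COL1A1. The 5 melanocyte markers summed to 2.47 and 2.14 CPM in controls and 3.75 and 3.87 CPM under knockdown, and 5 immune markers to 0.11 and 0.65 against 0.69 and 0.97 CPM. The 5 endothelial markers summed to 0.68 and 0.36 CPM in controls and 1.83 and 2.23 CPM under knockdown, and VWF among them had 0 counts in both controls and 10 and 14 under knockdown. The part of these levels in the kallikrein values was not tested. Of 12 genes of suprabasal differentiation, KRT1, KRT2, LOR and TGM3 had 0 counts in all 4 libraries. KRT10 of the same list had 26.9 to 32.4 CPM, and TGM1 and SPRR1B reached 4.93 and 4.65 CPM.

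The kallikreins did not divide the 4 libraries by group alone. All 6 kallikreins with counts were highest in knockdown 1 and lowest in control 2, an arrangement found in 10.2% of all tested genes, and KLK10 and KLK11 had both knockdown libraries above both controls, as did 27.1% of all tested genes. In edgeR's quasi-likelihood test with Benjamini-Hochberg adjustment over 15170 tested genes, 0 of the 7 tested members passed at 0.05, where 0.877% of all tested genes did (0.606% higher and 0.270% lower). At an unadjusted p below 0.05 there were 2 (KLK10 and KLK11), against 22.1% of all tested genes. DESeq2 called 1 of 7 members (KLK10), against 9.77% of the 13857 genes it gave an adjusted p, and limma-voom called 0 members and 0 genes. With no filter on low counts edgeR called 5 of 7 (KLK5, KLK7, KLK8, KLK10 and KLK11), against 8.25% of 25916 genes. In that fit the SE of the log2 fold change was 0.2 for KLK5 and 0.25 for KLK7, against 0.84 and 1.16 in the main test. The groups of both genes overlap, as given below, so these smaller SEs do not reflect their gaps between replicates. KLK9 was not tested.

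KLK5 is a trypsin-like enzyme that starts the epidermal protease cascade. KLK5 (ENSG00000167754, chromosome 19, 50943303 to 50953093) stood at 231 CPM in control 1 and 30.1 CPM in control 2, and at 346 CPM in knockdown 1 and 110.04 CPM in knockdown 2. The groups overlapped: knockdown 1 was highest, then control 1, then knockdown 2, with control 2 well below the rest. The means were 131 ± 142 CPM in controls and 228 ± 167 CPM under knockdown (SD, n = 2 each), with a log2 fold change of 0.80 ± 0.84 (SE, edgeR adjusted p = 0.619). The 95% interval ran from 0.450-fold to 6.74-fold. Without control 2 the log2 fold change was -0.005, and without control 1 it was 2.92. It was -0.23 without knockdown 1 and 1.4 without knockdown 2, so the value depends on which libraries are used. In bulk RNA, fewer cells that express a gene and less RNA per cell cannot be told apart.

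KLK7 is a chymotrypsin-like enzyme that cuts corneodesmosin and desmocollin 1. KLK7 (ENSG00000169035, chromosome 19, 50976482 to 50984099) had 28.3 CPM in control 1, 1.13 CPM in control 2, 63.96 CPM in knockdown 1 and 10.6 CPM in knockdown 2. The order of the libraries was the same as for KLK5, and the groups again overlapped. The log2 fold change was 1.31 ± 1.16 (SE, edgeR adjusted p = 0.550), with a 95% interval from 0.380-fold to 16.2-fold. It was 5.03 without control 1, 0.41 without control 2 and -0.47 without knockdown 1.

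KLK6, a trypsin-like enzyme also known from the brain, had the widest gap between the 2 controls. KLK6 (ENSG00000167755, chromosome 19, 50958631 to 50969673) had 85.1 CPM (2379 counts) in control 1 and 2.08 CPM (35 counts) in control 2. In the knockdown it had 89.1 CPM and 23.1 CPM. Control 1 and knockdown 1 lay close together, knockdown 2 below them, and control 2 far below all. The log2 fold change was 0.35 ± 1.20 (SE, edgeR adjusted p = 0.890), and it was 4.74 without control 1 and -0.59 without control 2.

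**Figure D1:**
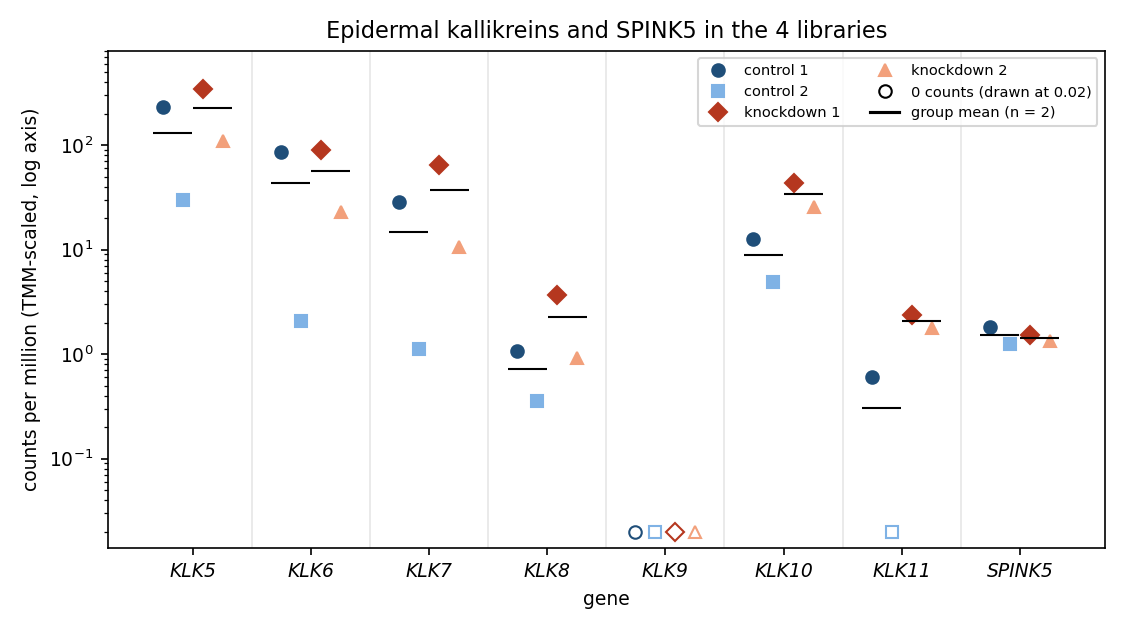
TMM-scaled CPM (log axis) of the 8 genes, 1 point per library, with black bars for the group means (n = 2) and open symbols for 0 counts. Control 2 is the lowest point of each counted kallikrein, from 30.1 CPM for KLK5 to 0 counts for KLK11, while SPINK5 stays between 1.25 and 1.82 CPM.

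The difference between replicates was among the widest of all genes. Over the 10920 tested genes that averaged 5 CPM or more, the median absolute log2 difference between the 2 controls was 0.20 (log2 CPM with a prior count of 2). KLK6 had 5.29 and KLK7 4.54, rank 1 and rank 2 of all these genes, and KLK5 had 2.94 at rank 9. KLK10 had 1.35, with 1.27% of genes showing a larger difference. Between the 2 knockdown libraries the same genes differed less but still widely: KLK7 by 2.58 (rank 7), KLK6 by 1.94 (rank 28), KLK5 by 1.65 (rank 55) and KLK10 by 0.76 (rank 772). In CPM, control 1 was 40.9-fold above control 2 for KLK6, 25.1-fold for KLK7 and 7.69-fold for KLK5.

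Other genes moved with this split of the libraries. HSPA5 and HERPUD1, a chaperone and a membrane protein of the unfolded protein response, were rank 4 and rank 3 in the same comparison of controls, in the opposite direction. HSPA5 stood at 830 CPM in control 1, 7688 CPM in control 2, 1645 CPM in knockdown 1 and 3872 CPM in knockdown 2. It was highest in control 2, where KLK5, KLK6 and KLK7 were lowest, then in knockdown 2, knockdown 1 and control 1. Both genes were picked after their values were seen, and their part in the kallikrein values was not tested. Control 2 was the shallowest library and knockdown 1, where the kallikreins were highest, the second shallowest, and the part of depth in these values was not tested.

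**Figure D2:**
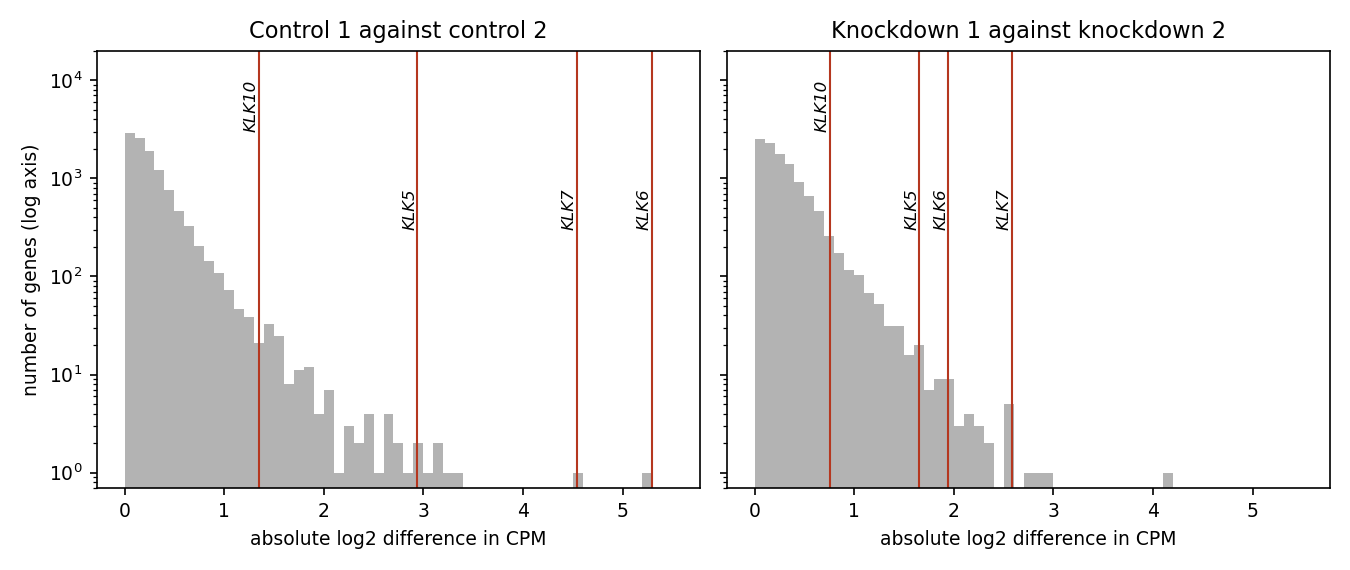
Number of genes (log axis) by absolute log2 difference in CPM between the 2 controls (left) and between the 2 knockdown libraries (right), for the 10920 genes that averaged 5 CPM or more. Red lines mark KLK5, KLK6, KLK7 and KLK10; KLK6 at 5.29 and KLK7 at 4.54 lie beyond every other gene in the controls.

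KLK10, first described as a gene of normal epithelial cells that is lost in tumours, came nearest to a call among the members. KLK10 (ENSG00000129451, chromosome 19, 51012739 to 51020175) had 12.7 CPM in control 1, 4.93 CPM in control 2, 43.03 CPM in knockdown 1 and 25.4 CPM in knockdown 2. Both knockdown libraries lay above both controls. The means were 8.81 ± 5.49 CPM in controls and 34.2 ± 12.4 CPM under knockdown (SD, n = 2 each), and the fitted log2 fold change was 1.94 ± 0.45 (SE), with a 95% interval from 1.86-fold to 7.90-fold. It missed the threshold in edgeR (adjusted p = 0.0711) and in limma-voom (adjusted p = 0.0698, where the smallest of any gene was 0.0558). DESeq2 called it (adjusted p = 5.59e-05), as it did 9.77% of the genes it gave an adjusted p. With 1 library left out the log2 fold change ran from 1.45 to 2.79.

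KLK11, a trypsin-like enzyme, was thinly counted. KLK11 (ENSG00000167757, chromosome 19, 51022216 to 51028039) had 17 counts in control 1 and 0 in control 2, and 48 and 42 counts in the knockdown. These are 0.608 CPM, 0 CPM (exact Poisson 95% upper limit 0.219 CPM), 2.37 CPM and 1.77 CPM. The groups did not overlap, and the fitted log2 fold change was 2.57 ± 0.91 (SE, edgeR adjusted p = 0.161, DESeq2 adjusted p = 0.0517). Counting error alone gave 0.354 to 0.973 CPM for control 1 and 1.28 to 2.39 CPM for knockdown 2 (exact Poisson, 95%), so these intervals did not meet.

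KLK8, a trypsin-like enzyme also called neuropsin, had 30 counts in control 1, 6 in control 2, 74 in knockdown 1 and 22 in knockdown 2. In CPM these are 1.07 and 0.356 against 3.65 and 0.926, with the same order of libraries as KLK5, KLK6 and KLK7. That order was shared by 4 of the 7 tested members and by 3.49% of all tested genes. The KLK8 log2 fold change was 1.60 ± 0.77 (SE, edgeR adjusted p = 0.271), and 0.33 without knockdown 1. KLK8 (chromosome 19, 50996007 to 51002711) shares 40.1% of its exon bases with AC011473.4, a gene on the same strand that joins KLK9 and KLK8, so its count is uncertain.

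KLK9, a chymotrypsin-like member, had 0 counts in all 4 libraries, against a 3-count floor of 0.107 to 0.178 CPM. The exact Poisson 95% upper limits of these zeros ran from 0.132 to 0.219 CPM. KLK9 (chromosome 19, 51003111 to 51009634) shares 93.7% of its exon bases with AC011473.4, which also had 0 counts. The sources used here do not give how reads shared by both genes were counted, so the 0 is no measure of KLK9 alone. KLK5, KLK6 and KLK10 share 12.2%, 20.3% and 6.2% of their exon bases with antisense genes that had at most 2 counts in a library. KLK7, KLK11 and SPINK5 share none.

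SPINK5 was the steadiest of the tested members. SPINK5 (ENSG00000133710) had 51 counts in control 1 and 21 in control 2, and 31 and 32 in the knockdown. These are 1.82, 1.25, 1.53 and 1.35 CPM, with both knockdown libraries between the 2 controls. The log2 fold change was -0.11 ± 0.45 (SE, edgeR adjusted p = 0.912). The 95% interval ran from 0.449-fold to 1.91-fold.

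**Figure D3:**
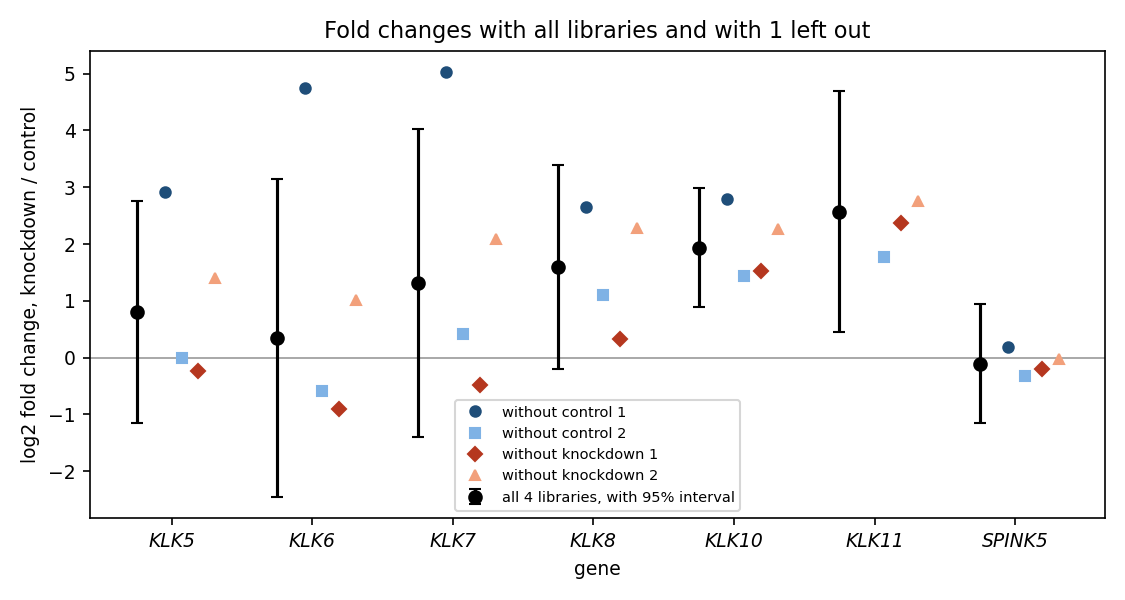
Fitted log2 fold changes of the 7 tested members, knockdown against control, with all 4 libraries (black, 95% interval) and with each library left out. KLK6 ranges from -0.91 to 4.74 and KLK10 from 1.45 to 2.79; the KLK11 value without control 1 is left out because the remaining control has 0 counts.

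Per length, KLK5 was the most abundant member and the level fell in the order KLK6, KLK7, KLK10, KLK8, SPINK5 and KLK11 in the control means. KLK5 had 139.8 and 18.2 CPM per kilobase of exon in controls and 209 and 66.6 under knockdown, and SPINK5 had 0.416 and 0.285 in controls and 0.349 and 0.308 under knockdown. The ranges of each of the 6 pairs of neighbours in this order overlapped over the 4 libraries. Within a library, KLK5 was above KLK6, KLK6 above KLK7 and KLK10 above KLK8 in 4 of 4, KLK8 was above SPINK5 in 3 of 4, and KLK7 above KLK10 and SPINK5 above KLK11 in 2 of 4. In the knockdown means KLK11 stood above SPINK5, and the order was otherwise the same. KLK5 was 336-fold and 63.9-fold above SPINK5 per length in controls 1 and 2, and 600-fold and 216-fold in knockdown 1 and 2. KLK7 was 27.9-fold and 1.63-fold above SPINK5 in the controls, and 75.2-fold and 14.2-fold in the knockdown. In CPM not divided by length, the kallikreins summed to 359 and 38.6 in controls and 548 and 172 under knockdown. KLK5 made up 63.1% to 78.0% of that sum in each library, a share of counts that also depends on exon length.

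The genes nearest in pattern over the 4 libraries were partly members of the same cluster. Likeness was the root mean square difference of log2 CPM, centred on each gene's mean, among 10919 other genes. KLK7 was nearest to KLK6 (0.405) and KLK6 to KLK7, with KLK5 next for both (0.878 from KLK6 and 0.803 from KLK7). The measure was not scaled by the size of a gene's differences. KLK6 and KLK7 had the widest gaps between controls (5.29 and 4.54), so few other genes could lie near them, and their nearness follows in part from these gaps. KLK5 was nearest to DPP4, a membrane-bound dipeptidyl peptidase (0.211), and KRT15, a keratin of basal keratinocytes (0.407). KRT15 stood at 205 and 24.9 CPM in controls and 217 and 47.6 CPM under knockdown, and DPP4 at 22.3, 3.56, 33.1 and 8.76 CPM in the same order. KLK10 was nearest to SUSD2, a sushi-domain membrane protein (0.157), and STON1, an endocytic adaptor (0.245), whose exons partly overlap a joined gene.

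The low values of control 2 did not extend to the genes flanking the cluster. C19orf48, the nearest coding gene before KLK1, had 174 and 180 CPM in controls and 96.5 and 89.6 CPM under knockdown, a log2 fold change of -0.92 ± 0.16 (SE, edgeR adjusted p = 0.0506). CTU1, the nearest coding gene after KLK14, had 2.93 and 3.39 CPM in controls and 3.55 and 5.98 CPM under knockdown. Neither had control 2 below the other libraries. Of the 8 other tissue kallikreins, 1 was tested and 0 passed. KLK1, which releases kinins, had 2.25 and 3.09 CPM in controls and 6.91 and 6.82 CPM under knockdown, with a log2 fold change of 1.37 ± 0.34 (SE, adjusted p = 0.0818). KLK1 differed little within groups, unlike KLK5, KLK6 and KLK7. KLK3 had 0 counts in all 4 libraries, and KLK2, KLK4, KLK12, KLK13, KLK14 and KLK15 were each under 1 CPM in every library.

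**Figure D4:**
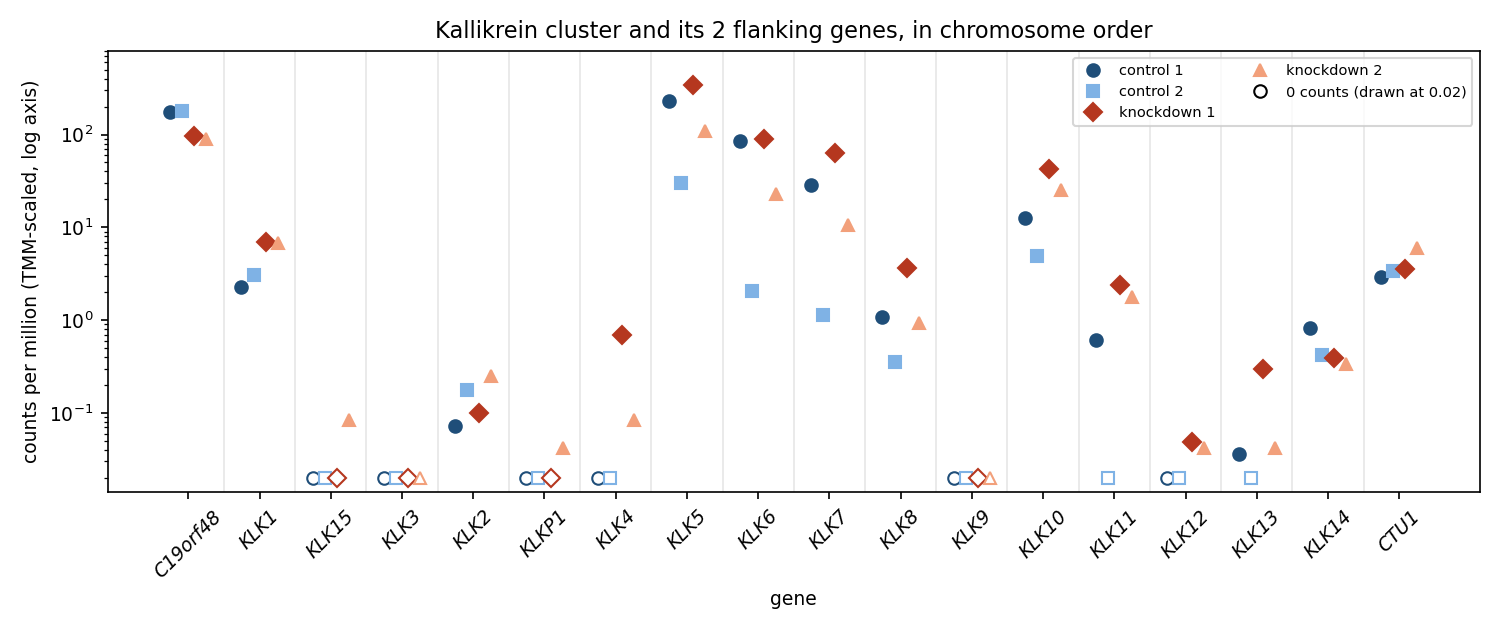
TMM-scaled CPM (log axis) of the kallikrein genes, the pseudogene KLKP1 and the 2 flanking genes in chromosome order, 1 point per library, with open symbols for 0 counts. Control 2 is the lowest point from KLK5 to KLK11 except at KLK9, which has 0 counts throughout, and not at C19orf48, KLK1 or CTU1.

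The other genes of the pathway were counted from lists of enzymes, inhibitors and substrates. Over these and the cell type lists, 0 genes passed in edgeR's test over all genes, and the median log2 fold change of all tested genes was -0.004. Of 9 activating membrane proteases and their inhibitors 7 were tested, with a median log2 fold change of 0.49. PRSS8 (prostasin), which acts with matriptase upstream of kallikreins, had 67.4 and 77.8 CPM in controls and 140.8 and 146 CPM under knockdown, a log2 fold change of 0.98 ± 0.17 (SE). Its adjusted p was 0.0501 in the edgeR test, where 0.877% of all tested genes passed. It passed with DESeq2 size factors in the same test, where 1.36% of all tested genes did, and limma-voom called 0 genes. SPINT1 and SPINT2, which inhibit matriptase and prostasin, had log2 fold changes of 0.72 ± 0.16 (adjusted p = 0.0680) and 0.49 ± 0.18 (adjusted p = 0.177). ST14 (matriptase) had 109 and 112 CPM in controls and 98.2 and 113 CPM under knockdown.

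Of 9 other protease inhibitors of epidermis 4 were tested (median 0.45, 0.69 without control 1 and 0.71 without control 2). SLPI, an inhibitor of neutrophil elastase, had 18.1 and 20.4 CPM in controls and 47.3 and 35.9 CPM under knockdown (log2 fold change 1.11 ± 0.21, SE, edgeR adjusted p = 0.0572), and SERPINB6 had 0.27 ± 0.21. Of the 9 other SPINK genes 0 were tested, and they summed to at most 0.46 CPM in a library.

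Of 8 kallikrein substrates with PAR2 5 were tested (median 0.05, from -0.23 without knockdown 1 to 0.19 without control 1). CDSN (corneodesmosin) had 4.50 and 1.66 CPM in controls and 1.33 and 0.590 CPM under knockdown, a log2 fold change of -1.71 ± 0.63 (SE, edgeR adjusted p = 0.172), and 93.8% of its exon bases overlap PSORS1C1, so its count is uncertain. SMPD1, the acid sphingomyelinase, had 16.6 and 15.0 CPM in controls and 35.3 and 28.4 CPM under knockdown (log2 fold change 1.01 ± 0.21, adjusted p = 0.0619). F2RL1, which encodes PAR2, had 37.6 and 44.6 CPM in controls and 38.5 and 48.05 CPM under knockdown. DSG1, the main desmosomal cadherin of upper epidermis, had 0 counts in all 4 libraries.

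Of 6 cathepsins and cystatins all were tested (median 0.04, from -0.05 without knockdown 1 to 0.19 without control 1). CTSC, which activates granule proteases, had a log2 fold change of -0.76 ± 0.16 (SE, edgeR adjusted p = 0.0632) and CSTA, a cysteine protease inhibitor of cornified cells, 0.49 ± 0.17 (adjusted p = 0.146). CTSD had 127 and 63.03 CPM in controls and 242 and 99.4 CPM under knockdown, so its control 2 was again the lowest and knockdown 1 the highest, and 52.7% of its exon bases overlap other genes. Of 12 genes of suprabasal differentiation 5 were tested (median -0.12, 0.50 without knockdown 1 and 0.73 without control 1). KRT10 had 29.3 and 32.4 CPM in controls and 26.9 and 29.4 CPM under knockdown, TGM1 had a log2 fold change of 0.87 ± 0.54 and SPRR1B of -0.12 ± 0.51. The 12 keratinocyte markers had a median of 0.50 (0.20 without knockdown 1, 0.31 without control 1, 0.79 without knockdown 2 and 0.83 without control 2), with DSG3 at 1.04 ± 0.22 (adjusted p = 0.0619), KRT17 at 0.90 ± 0.35 and KRT16 at 1.23 ± 0.53, all in the edgeR test. Reads of KRT16 and KRT17 can be shared with close paralogs and pseudogenes. Of the other cell types, COL1A1 had a log2 fold change of 1.00 ± 0.31 (adjusted p = 0.122) and PMEL of 0.72 ± 0.37.

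**Figure D5:**
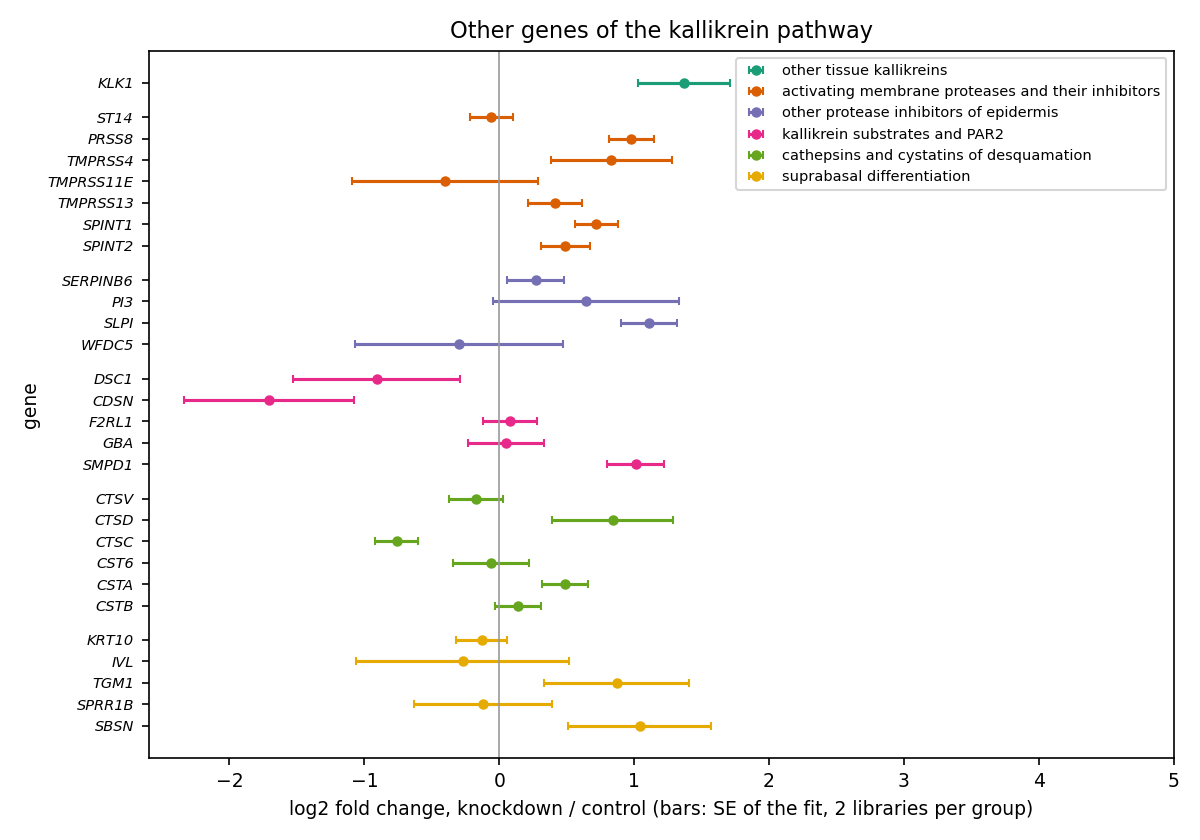
Log2 fold changes, knockdown against control, of the tested genes of 6 pathway lists, with bars for the SE of the fit (2 libraries per group). KLK1 at 1.37 and SLPI at 1.11 lie highest and CDSN at -1.71 lowest, and none passed the test over all genes.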

How the data were processed

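PolyA RNA of 4 SCC13 libraries was sequenced, 2 per group, with groups and replicate numbers from the sample titles. The authors deposited raw read counts per Ensembl gene, and HISAT2, edgeR and GRCh38 are named in the submitters' processing notes. Not given in the sources used here are the counting program, the annotation release, the strand setting and how shared reads were handled. Counts were fitted with edgeR 4.0.16 (R 4.3.3): TMM, filterByExpr (minimum count 10), quasi-likelihood test, Benjamini-Hochberg adjustment over 15170 genes at 0.05. The common biological coefficient of variation was 21.6%. SEs were taken from the F statistic. On simulated counts for this comparison over 14974 genes, 37% of genes changed 2-fold and 100% of those changed 8-fold were called. The changed genes were drawn from well counted ones, and every gene was given the common coefficient of variation. These shares therefore do not apply to thinly counted members, or to KLK5, KLK6 and KLK7 with their wide gaps between replicates. Positions and exon lengths came from GENCODE v29, which held 58542 of 60617 gene IDs. Promoter windows came from RefSeq (7 of 8 members matched, all but KLK8). DESeq2 1.42.0 and limma 3.58.1 were alternatives, beside other scaling, no filter, a replicate block and leaving out each library. Named were all members, per list up to 3 tested genes of at least 1 CPM with the smallest p, and the 2 genes nearest in pattern to each member of at least 5 CPM. Other genes named were chosen after their values were seen. The members and lists were chosen with earlier results of these data known. 1 marker of the lists is not reported here. Poisson limits and floors cover counting error only, while the intervals of fold changes come from the edgeR fit and also cover the spread between libraries.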

Additional observations from a re-analysis of the deposited data

How the results depend on the processing

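The number of members past the threshold was 0 in the main test, with the other scalings, with limma-voom and with any 1 library left out. Of 7 tested it was 1 with DESeq2 (KLK10) and 5 with no filter on low counts (KLK5, KLK7, KLK8, KLK10 and KLK11). The unfiltered fit gave KLK5 and KLK7 much smaller SEs (0.2 and 0.25) than the main test (0.84 and 1.16). Over all genes the count was 133, and it was 207 with DESeq2 size factors in edgeR, 416 with library size only, 1354 with DESeq2 (9.77% of 13857), 0 with limma-voom (3402 at an unadjusted p below 0.05) and 2139 with no filter (8.25% of 25916). With 1 library left out it ran from 0 (without control 1) to 616 (without control 2), with 365 without knockdown 1 and 7 without knockdown 2. Of the list genes, 0 passed in the main test, 1 (PRSS8) with DESeq2 size factors, and 0 to 4 with 1 library left out. The cause of these shifts was not tested.

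The replicate numbers are not stated to mark a shared culture. Across 15170 genes the deviations of control 1 and knockdown 1 from their group means had a correlation of 0.203. With the replicate number as a block, edgeR called 1579 genes (10.4% of 15170), and 4 of 7 members were called: KLK5 (log2 fold change 1.21), KLK7 (1.94), KLK10 (2.04) and KLK11 (2.86). Higher calls made up 6.28% of tested genes in that fit.

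With 1 library left out, the signs of 4 members changed. KLK5 ranged from -0.23 to 2.92, KLK6 from -0.91 to 4.74, KLK7 from -0.47 to 5.03 and SPINK5 from -0.33 to 0.20. The median of the suprabasal list ranged from -0.20 to 0.73. KLK10 kept its direction in every setting tried (1.45 to 2.79). The order of levels per length had 6 overlapping pairs of neighbours, also with the longest transcript as length and with library size only. KLK8, KLK11 and SPINK5 had at most 74 counts in a library.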
